A study of Homo sapiens with 6 samples.

Results

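The axon guidance ligands and receptors were examined in A549, an established epithelial line from a human lung adenocarcinoma, after a siRNA against GSE1 was introduced. The members are the rows of the deposited gene table whose symbol belongs to the semaphorins, plexins, neuropilins, DCBLD proteins, ephrins, Eph receptors, netrins, UNC5 receptors, slits or roundabouts. They number 72 of the 60612 genes in the table. A total of 3 libraries came from A549 cells given GSE1 siRNA (siGSE1) and 3 from A549 cells given a negative control siRNA, and all were collected 48 hours after transfection. Both groups are the same unmodified line, and the control cells also carry transfected siRNA. The sources used here do not give whether 1 siRNA or a pool was used or whether replicates were separate cultures. The p-values therefore reflect only how far these libraries vary, and that variation may be technical.

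Guidance cues were first described as signals that steer growing axons, and epithelial and cancer cells use the same molecules to regulate adhesion, migration and cell sorting. Semaphorins bind plexins, and most class 3 semaphorins need a neuropilin as co-receptor. Ephrins are membrane-bound ligands of the Eph receptor tyrosine kinases, and signals can pass into both the Eph-bearing and the ephrin-bearing cell. Netrins act through DCC, neogenin and UNC5 receptors, and slits act through roundabouts.

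Library totals ran from 14475992 to 20755506 counts. GSE1 was at 7.78 ± 0.365 FPKM in control and 3.88 ± 0.168 FPKM in siGSE1 libraries (SD, n = 3 each), which is 49.0% of control (log2 fold change -1.03, SE 0.06, edgeR adjusted p = 2.14e-08; exact two-sided permutation p = 0.1, the smallest that 3 against 3 allows). FPKM are counts per unit of exonic length and scaled to the library total, so levels can be compared between genes. Of 8 epithelial markers, KRT8 and KRT18 averaged 697 and 837 FPKM, while EPCAM, CLDN7 and MUC1 averaged under 1 FPKM. The summed level of these markers was 1570 to 2057 FPKM in control and 1517 to 1549 FPKM in siGSE1 libraries, with 0 higher and 3 lower of 7 tested. Of 12 fibroblast markers, 8 averaged under 1 FPKM and 2 of 7 tested were higher (COL5A1 and ACTA2), with a summed level of 118 to 151 FPKM in control and 160 to 166 FPKM in siGSE1 libraries. VIM made up most of this sum, at a mean of 127 FPKM in control and 145 FPKM in siGSE1 libraries, and did not pass (edgeR adjusted p = 0.101). Endothelial markers summed to 0.81 to 1.09 and 1.44 to 2.28 FPKM, with 1 of 2 tested higher (ESAM) and TIE1, EMCN and ERG at 0 counts. Leukocyte markers summed to 5.2 to 7.69 and 4.61 to 7.20 FPKM with 0 of 3 tested changed. Neuronal markers summed to 33.1 to 36.5 and 32.2 to 35.2 FPKM, with 1 of 6 tested lower (NEFL) and STMN2 at 0 counts. Over all genes tested, 10.9% were higher and 9.02% lower, and few markers of each list were tested. The part of these markers in the results was not tested. In bulk RNA, fewer cells of a type and less RNA per cell cannot be told apart.

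A549 cells expressed a limited part of the guidance repertoire. Of the 72 genes, 13 averaged over 10 FPKM, 18 lay between 1 and 10 FPKM and 41 were under 1 FPKM. EPHA2, an Eph receptor of epithelia, was the most abundant, followed by DCBLD2, a neuropilin-like membrane protein, PLXNB2, a plexin for class 4 semaphorins, and SEMA4B and SEMA3C. EPHA2 alone made up 81.3% to 82.3% of the summed FPKM of the 14 Eph receptors in control libraries and 76.2% to 77.9% in siGSE1 libraries. EFNA1, which binds EphA receptors, made up 52.7% to 58.7% of the summed FPKM of the 8 ephrins in control and 68.9% to 69.7% in siGSE1 libraries. Netrin expression was almost all NTN4, with 96.6% to 96.9% in control and 97.8% to 98.3% in siGSE1 libraries. PLXNB2 held 59.0% to 59.97% and 58.8% to 60.2% of the summed plexin FPKM.

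**Figure D1:**
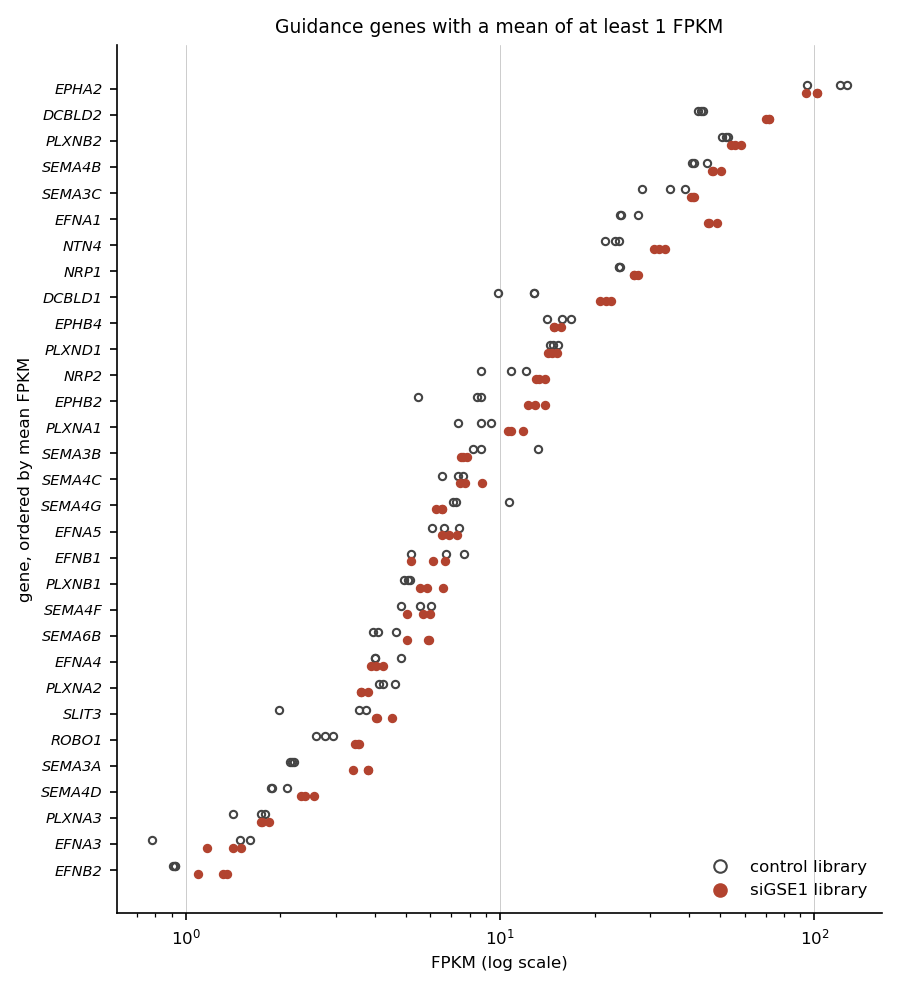
FPKM (log axis) of the 31 guidance genes with a mean of at least 1 FPKM, ordered by mean level, with each control library as an open circle and each siGSE1 library as a filled circle. EPHA2 lies highest, at 94.2 to 127 FPKM, and the filled circles of DCBLD2, EFNA1, DCBLD1 and NTN4 lie right of all their open circles.

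Low counts kept 20 of the 72 genes out of the test. Their highest count in any library was 19 and their highest level 0.31 FPKM. They include the canonical slit ligands SLIT1 and SLIT2, the netrins NTN3 and NTN5, the semaphorins SEMA3G, SEMA4A, SEMA5A, SEMA5B and SEMA6A, and the receptors EPHA1, EPHA5, EPHA7, EPHB1, ROBO4 and UNC5D. A further 5 genes had 0 counts in all 6 libraries, namely EPHA3, EPHA8, SEMA6D, NTNG1 and ROBO2. A count of 0 allows up to 3 counts, or 0.0087 to 0.038 FPKM depending on the gene and library, for counting error only.

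Of the 52 guidance genes tested, 16 rose and 5 fell after GSE1 siRNA, while 31 stayed short of the threshold (edgeR quasi-likelihood test, adjusted p under 0.05). That is 40.4% of the tested members, against 19.9% of all 15937 genes tested. Those that rose were 30.8% of the tested members, where 10.9% of all genes rose, and those that fell were 9.62%, where 9.02% of all genes fell. The members were chosen with earlier results of these data known. These shares and those of each family below are therefore not a test of the families. The tested members had a median exonic length of 6830 bases, against 4744 over all genes tested, and a median level of 3.0 against 3.8 FPKM. A longer gene has more counts at the same FPKM, and the part of length in these shares was not tested. The median log2 fold change was 0.09 over the tested members and 0.00 over all genes tested, and without control replicate 2 it was 0.03 and 0.01. The stricter limits taken from the series text (adjusted p of at most 0.001 and a ratio limit of 0.5, read here as a log2 change) were met by 6 members, DCBLD2, EFNA1, DCBLD1, SEMA3A, EPHB2 and EPHB3, where 2.55% of all genes met them. The groups' values did not overlap in 25 of the 52, where this held for 36.1% of all genes tested.

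These counts moved with the libraries and the scaling used. Without siGSE1 replicate 1, 2 or 3 in turn, 10 members rose and 3 fell each time, where 13.2%, 12.6% and 11.4% of all genes tested changed. Without control replicate 2, 15 members rose and 3 fell, where 21.9% of all genes changed. With libraries scaled as for TPM, 19 rose and 3 fell, where 21.8% of all genes changed. A set of 8 members kept its call and direction under all 15 alternative settings, namely DCBLD2, EFNA1, DCBLD1, SEMA3A, NTN4, EPHB3, PLXNA1 and ROBO1.

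**Figure D2:**
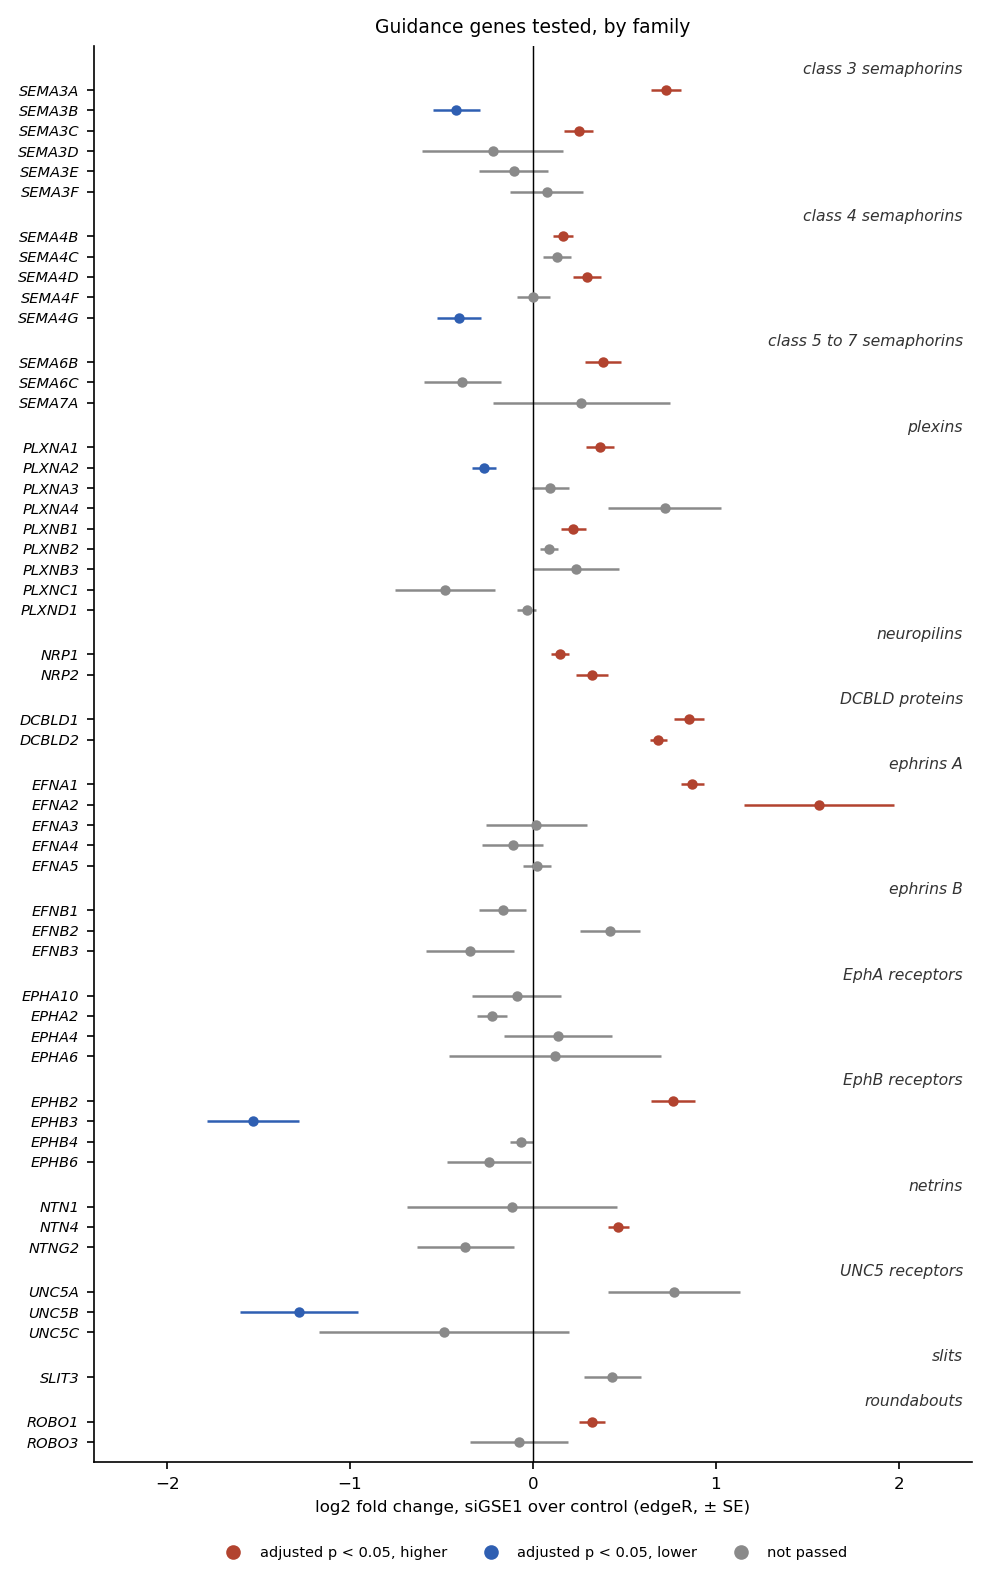
Log2 fold change of siGSE1 over control (edgeR, bars are standard errors) for the 52 guidance genes tested, grouped by family; red points were higher and blue points lower at an adjusted p under 0.05, and grey points did not pass. Both DCBLD genes and both neuropilins were higher, while EPHB3 and UNC5B show the largest decreases, at -1.53 and -1.28.

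Both DCBLD genes rose, where 10.9% of all genes tested rose. DCBLD2 and DCBLD1 encode membrane proteins whose extracellular domains resemble those of neuropilins. DCBLD2 (ENSG00000057019, chromosome 3, 98795941 to 98901695, minus strand, hg38) had 43.6, 44.1 and 42.7 FPKM in control replicates 1, 2 and 3 and 71.6, 71.7 and 69.9 FPKM in siGSE1 replicates 1, 2 and 3. The libraries of each group lay close together, far from the other group. Its fold change was 1.61 (log2 0.68, SE 0.05, adjusted p = 1.63e-07). DCBLD1 (ENSG00000164465, chromosome 6, 117453817 to 117569858, plus strand) had 12.8, 9.81 and 12.8 FPKM in control and 21.7, 20.9 and 22.5 FPKM in siGSE1 libraries. The lowest control value was that of replicate 2, and no siGSE1 library overlapped the controls. The fold change was 1.81 (log2 0.85, SE 0.08, adjusted p = 3.60e-06), and it was 0.73 on the log2 scale without control replicate 2. DCBLD1 shares 117 exonic bases (1.72% of its exons) with GOPC on the opposite strand in GENCODE release 29, and GOPC went from 11.7 to 17.1 FPKM. The sources used here do not give whether counting used strand, so reads from these shared bases cannot be told apart.

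EFNA1, a GPI-anchored ephrin and a ligand of EPHA2, rose in siGSE1 cells. EFNA1 (ENSG00000169242, chromosome 1, 155127876 to 155134899, plus strand) had 24.3, 24.1 and 27.5 FPKM in control and 48.9, 46.2 and 45.7 FPKM in siGSE1 libraries, so the groups were well apart. Its fold change was 1.83 (log2 0.87, SE 0.06, adjusted p = 2.01e-07). Its receptor EPHA2 (ENSG00000142627, chromosome 1, 16124337 to 16156069, minus strand) had 120.7, 94.9 and 127 FPKM in control and 94.2, 102 and 102 FPKM in siGSE1 libraries. Control replicate 2 lay within the siGSE1 range and the other control libraries above it. EPHA2 did not pass (log2 fold change -0.22, SE 0.08, adjusted p = 0.0618). Without control replicate 2 its log2 fold change was -0.34 with an adjusted p of 1.23e-06, and DESeq2 on all 6 libraries gave an adjusted p of 0.0354. Of 15 alternative settings, EPHA2 passed in 4 and did not in 11. Its adjusted p was 0.196 and 0.206 without control replicates 1 and 3, and 0.216 under edgeR's robust prior. Per library, the ratio of EFNA1 to EPHA2 in FPKM was 0.202, 0.254 and 0.216 in control and 0.520, 0.453 and 0.449 in siGSE1 cells, a ratio chosen after its values were seen.

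The promoter windows of the changed genes are shown because the series title names KLF6, and Krüppel-like factors are known to bind GC-rich elements such as the GC box and the CACCC box. RefSeq promoter windows, 250 bases before to 50 bases after the annotated start (GRCh38.p14), were matched by symbol for 61 of the 72 genes. For 46 of them the RefSeq start lay within 100 bases of the gene start in the deposited table. For the printed examples, the genes with the smallest adjusted p in each direction whose RefSeq start equals the gene start in the deposited table, capitals mark GGGCGG and CACCC on either strand (CCGCCC and GGGTG on the other), and where matches meet or overlap the capitals run on. The higher genes are DCBLD2 at chr3:98901646-98901945 (minus strand) and EFNA1 at chr1:155127626-155127925 (plus strand), and the lower genes are EPHB3 at chr3:184561535-184561834 (plus strand) and PLXNA2 at chr1:208244335-208244634 (minus strand).
DCBLD2: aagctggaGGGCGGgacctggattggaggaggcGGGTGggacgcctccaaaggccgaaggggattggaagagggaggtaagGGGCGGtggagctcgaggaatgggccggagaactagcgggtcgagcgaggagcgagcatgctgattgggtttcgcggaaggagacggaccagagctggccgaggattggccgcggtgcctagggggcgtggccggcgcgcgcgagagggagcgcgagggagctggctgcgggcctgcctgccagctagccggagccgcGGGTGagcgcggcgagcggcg
EFNA1: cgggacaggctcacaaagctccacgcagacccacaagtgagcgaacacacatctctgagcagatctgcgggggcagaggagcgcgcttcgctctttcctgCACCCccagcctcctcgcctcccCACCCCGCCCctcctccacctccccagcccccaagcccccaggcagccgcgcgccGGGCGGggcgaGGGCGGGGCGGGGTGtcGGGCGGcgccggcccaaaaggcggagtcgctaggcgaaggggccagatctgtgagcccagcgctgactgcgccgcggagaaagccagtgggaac
EPHB3: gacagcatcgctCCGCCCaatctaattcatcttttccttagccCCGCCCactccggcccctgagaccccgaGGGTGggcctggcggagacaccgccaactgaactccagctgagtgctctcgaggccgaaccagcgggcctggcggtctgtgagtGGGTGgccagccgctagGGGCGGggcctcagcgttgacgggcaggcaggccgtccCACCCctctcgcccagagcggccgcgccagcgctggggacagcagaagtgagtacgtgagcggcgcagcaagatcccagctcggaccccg
PLXNA2: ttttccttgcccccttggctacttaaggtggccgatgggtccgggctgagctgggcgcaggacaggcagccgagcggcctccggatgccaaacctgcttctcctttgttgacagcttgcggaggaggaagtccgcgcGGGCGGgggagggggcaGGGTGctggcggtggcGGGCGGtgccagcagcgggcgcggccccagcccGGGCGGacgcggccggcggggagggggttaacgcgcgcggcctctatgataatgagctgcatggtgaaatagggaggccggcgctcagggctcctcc

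DCBLD2 held 2 matches to GGGCGG and 2 to CACCC, EFNA1 held 5 and 3, EPHB3 held 3 and 3, and PLXNA2 held 3 and 1. Genes of both directions thus carried both elements. Over the matched members that were tested, GGGCGG was present in 10 of 13 genes that rose, 4 of 4 that fell and 23 of 27 that did not pass, and in 45.0% of all 35116 RefSeq windows. CACCC was present in 9 of 13, 4 of 4 and 18 of 27, and in 59.9% of all windows. Over the tested members among the 46 windows within 100 bases of the table's start, GGGCGG was present in 5 of 8 genes that rose, 4 of 4 that fell and 20 of 21 that did not pass. CACCC was in 6 of 8, 4 of 4 and 14 of 21. The AP-1 sequence TGANTCA, searched on both strands, was in 0 of the 61 member windows and in 7.71% of all windows. The shares of all windows count every RefSeq window, with no limit to tested genes. For a member only the window nearest its start was used, so these shares are not of like sets. A match is a description of the sequence and not a binding site.

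**Figure D3:**
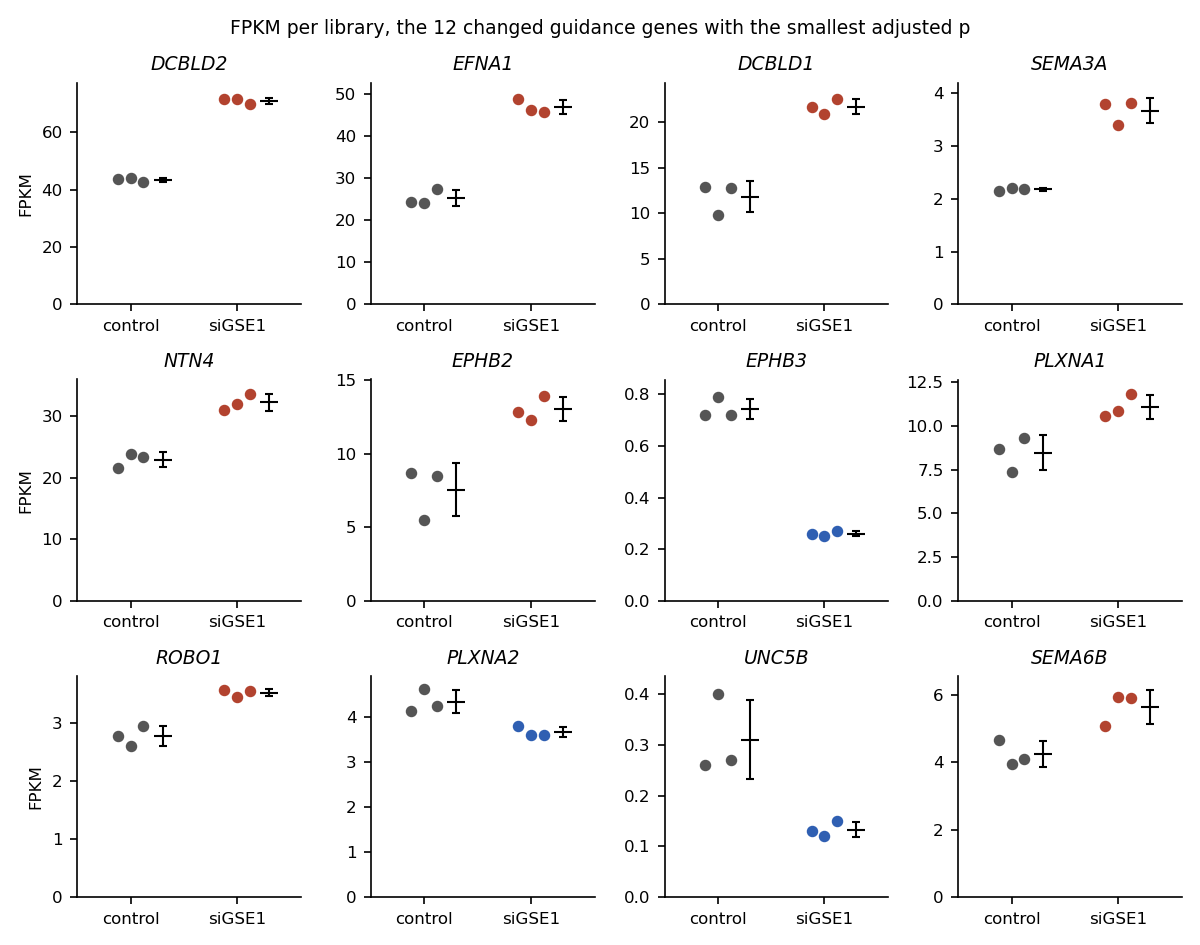
FPKM in each library (points) with the mean and SD of 3 libraries (bars) for the 12 changed guidance genes with the smallest adjusted p; each panel starts at 0. DCBLD2 and SEMA3A show tight groups, while in DCBLD1, EPHB2 and UNC5B control replicate 2 (the middle control point) lies off the other controls, at 9.81, 5.48 and 0.40 FPKM.

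Of the 8 ephrins tested, 2 rose and 0 fell, which is 25% and near the 19.9% of all genes that changed. Among the other A-class ephrins, EFNA2 was also higher, at a very low level. EFNA2 had 12, 7 and 6 counts in control and 26, 31 and 20 counts in siGSE1 libraries, or 0.18 ± 0.051 and 0.56 ± 0.13 FPKM (SD, n = 3 each). The groups did not overlap, and its log2 fold change was 1.56 (SE 0.41, adjusted p = 0.0133). Its call was lost without siGSE1 replicate 1 or 2 (adjusted p = 0.0561 and 0.0716). EFNA3, EFNA4 and EFNA5 did not pass, with log2 fold changes of 0.02, -0.11 and 0.02. None of the transmembrane B-class ephrins passed, although EFNB2 was at 0.92, 0.92 and 0.91 FPKM in control and 1.31, 1.35 and 1.09 FPKM in siGSE1 libraries without overlap (adjusted p = 0.0807). EFNB1, the most abundant of them, had 6.53 ± 1.25 and 5.99 ± 0.746 FPKM (log2 fold change -0.17, adjusted p = 0.416). That value of EFNB1 was -0.04 without control replicate 2, -0.31 without control replicate 3, -0.25 without siGSE1 replicate 1 and -0.07 without siGSE1 replicate 2.

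Of 8 Eph receptors tested, 1 rose, 1 fell and 6 did not pass, which is again 25% changed, near the 19.9% of all genes. EphB receptors, which bind mainly B-class ephrins, included members that changed in opposite directions. EPHB2 (ENSG00000133216, chromosome 1, 22710839 to 22921500, plus strand) had 8.72, 5.48 and 8.47 FPKM in control and 12.9, 12.3 and 13.9 FPKM in siGSE1 libraries. Control replicate 2 was the low one, and all siGSE1 values lay above all control values. The fold change was 1.70 (log2 0.76, SE 0.12, adjusted p = 3.14e-04), it was 0.57 on the log2 scale without control replicate 2, and under edgeR's robust prior the adjusted p was 0.0779. EPHB3 (ENSG00000182580, chromosome 3, 184561785 to 184582408, plus strand) had 0.72, 0.79 and 0.72 FPKM in control and 0.26, 0.25 and 0.27 FPKM in siGSE1 libraries. These values rest on 47 to 74 counts in control and 21 to 24 counts in siGSE1 libraries. EPHB3 was 2.89-fold lower (log2 fold change -1.53, SE 0.25, adjusted p = 4.72e-04). The FPKM ratio of EPHB2 to EPHB3, chosen after the values were seen, was 12.1, 6.94 and 11.8 in control and 49.5, 49.2 and 51.6 in siGSE1 libraries. EPHB4, the most abundant EphB receptor, had 15.5 ± 1.33 and 15.1 ± 0.43 FPKM (log2 fold change -0.06, adjusted p = 0.527, and -0.13 and -0.03 on the log2 scale without control replicates 2 and 3). Of the 4 EphA receptors tested, 0 passed in the edgeR test, and 1 (EPHA2) had an unadjusted p under 0.05 and passed in DESeq2. EPHA2 did not pass in 11 of the 15 alternative settings. The others, EPHA4, EPHA6 and EPHA10, were under 1 FPKM.

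Of 14 semaphorins tested, 5 rose, 2 fell and 7 did not pass, which is 50% changed, against 19.9% of all genes. Their median log2 fold change was 0.10. Secreted class 3 semaphorins split between increases and a decrease. SEMA3A, a neuropilin 1 ligand that repels axons and inhibits cell migration in many settings, had 2.15, 2.20 and 2.18 FPKM in control and 3.80, 3.39 and 3.81 FPKM in siGSE1 libraries. SEMA3A (ENSG00000075213, chromosome 7, 83955777 to 84492724, minus strand) rose 1.65-fold (log2 0.73, SE 0.08, adjusted p = 1.35e-05), with no overlap between groups. SEMA3C, the most abundant class 3 semaphorin, had 34.7, 28.4 and 38.7 FPKM in control and 41.0, 41.3 and 40.5 FPKM in siGSE1 libraries (log2 fold change 0.25, SE 0.08, adjusted p = 0.0365). The low value of control replicate 2 weighs on it, and without that library the log2 fold change was 0.14 (adjusted p = 0.0612). Without siGSE1 replicates 1, 2 and 3 its adjusted p was 0.110, 0.115 and 0.111. SEMA3B, described as a tumor suppressor of the lung, had 8.21, 13.2 and 8.66 FPKM in control and 7.86, 7.62 and 7.48 FPKM in siGSE1 libraries (log2 fold change -0.42, SE 0.13, adjusted p = 0.0300). Here control replicate 2 was the high value, without which the log2 fold change was -0.16 (adjusted p = 0.105), and the adjusted p was 0.0748, 0.1 and 0.125 without siGSE1 replicates 1, 2 and 3 and 0.199 in DESeq2.

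Membrane-bound semaphorins showed small changes. SEMA4B, the most abundant semaphorin, had 40.7, 41.4 and 45.7 FPKM in control and 47.4, 47.5 and 50.5 FPKM in siGSE1 libraries, a rise of 1.12-fold (log2 0.16, SE 0.05, adjusted p = 0.0448). Its adjusted p was 0.118 without control replicate 1 and 0.0986, 0.0936 and 0.198 without siGSE1 replicates 1, 2 and 3. SEMA4D, the ligand of PLXNB1, had 1.88, 1.87 and 2.10 FPKM in control and 2.4, 2.33 and 2.55 FPKM in siGSE1 libraries (log2 fold change 0.29, SE 0.08, adjusted p = 0.0130, and 0.0760 without siGSE1 replicate 3). By limma on log2(FPKM + 1) and log2(FPKM + 0.1) the adjusted p of SEMA4D was 0.0828 and 0.0892. SEMA6B, a class 6 semaphorin, had 4.67, 3.94 and 4.09 FPKM in control and 5.06, 5.94 and 5.89 FPKM in siGSE1 libraries (log2 fold change 0.38, SE 0.10, adjusted p = 0.0120). Without siGSE1 replicates 2 and 3, the adjusted p of SEMA6B was 0.0648 and 0.0688. In each of these genes the groups did not overlap, though the gap was narrow.

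SEMA4G, a class 4 semaphorin, had 7.10, 10.7 and 7.26 FPKM in control and 6.23, 6.55 and 6.53 FPKM in siGSE1 libraries (log2 fold change -0.41, SE 0.12, adjusted p = 0.0248). Again control replicate 2 stood high, and without it the log2 fold change was -0.18 (adjusted p = 0.0987). The adjusted p was 0.0932, 0.0761 and 0.0894 without siGSE1 replicates 1, 2 and 3. With all 6 libraries it was 0.151 under edgeR's robust prior and 0.0604 with TPM scaling. By limma on log2(FPKM + 1) and log2(FPKM + 0.1) it was 0.163 and 0.154. SEMA4G shares 1170 exonic bases (22.3% of its exons) with MRPL43, a mitochondrial ribosomal protein gene on the opposite strand at 25.6 FPKM in control and 22.8 FPKM in siGSE1 cells, so its value is uncertain. SEMA4C and SEMA4F did not pass, with log2 fold changes of 0.13 and 0.00.

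Both neuropilins rose slightly, where 10.9% of all genes tested rose. Of 15 alternative settings, NRP1 lost its call in 7 and NRP2 in 5. NRP1, co-receptor of SEMA3A and of vascular endothelial growth factor, had 24.0, 23.9 and 23.8 FPKM in control and 27.4, 26.7 and 26.8 FPKM in siGSE1 libraries. This 1.11-fold difference passed narrowly (log2 0.15, SE 0.05, adjusted p = 0.0414). It did not pass without control replicate 3 (adjusted p = 0.112) or without siGSE1 replicates 1, 2 and 3 (0.167, 0.105 and 0.109). With all 6 libraries it also did not pass with RLE scaling (0.0560), no low-count filter (0.0529) or the replicate block (0.0543). NRP2, which prefers SEMA3F, had 12.1, 8.66 and 10.8 FPKM in control and 13.3, 13.0 and 13.9 FPKM in siGSE1 libraries (log2 fold change 0.32, SE 0.09, adjusted p = 0.0159). Without control replicate 2 its log2 fold change was 0.20 (adjusted p = 0.00939). The call was lost without siGSE1 replicates 1 and 3 (adjusted p = 0.0540 and 0.0930) and under edgeR's robust prior (0.125). It was also lost by limma on log2(FPKM + 1) and log2(FPKM + 0.1) (0.0679 and 0.0655).

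Of 9 plexins tested, 2 rose, 1 fell and 6 did not pass, which is 33.3% changed, against 19.9% of all genes. Plexins of the A class, which transduce class 3 and class 6 semaphorin signals, included a higher and a lower member. PLXNA1 had 8.70, 7.36 and 9.32 FPKM in control and 10.6, 10.8 and 11.8 FPKM in siGSE1 libraries (log2 fold change 0.37, SE 0.08, adjusted p = 0.00270). PLXNA2 had 4.13, 4.62 and 4.25 FPKM in control and 3.80, 3.60 and 3.61 FPKM in siGSE1 libraries (log2 fold change -0.27, SE 0.06, adjusted p = 0.00814). Neither gene's groups overlapped, and the FPKM ratio of PLXNA1 to PLXNA2, chosen after the values were seen, was 2.11, 1.59 and 2.19 in control and 2.78, 3.01 and 3.27 in siGSE1 libraries. On log2(FPKM + 1) the adjusted p of PLXNA2 by limma was 0.0935. PLXNB1, the receptor of SEMA4D, had 5.09, 4.96 and 5.15 FPKM in control and 6.59, 5.87 and 5.57 FPKM in siGSE1 libraries (log2 fold change 0.22, SE 0.07, adjusted p = 0.0351). Its adjusted p was 0.0604 and 0.0753 without control replicates 1 and 3, 0.206 and 0.0746 without siGSE1 replicates 1 and 2, and 0.0567 in DESeq2. The abundant PLXNB2 did not pass at 52.0 ± 1.14 and 56.2 ± 1.96 FPKM (log2 fold change 0.09, adjusted p = 0.251), although its groups did not overlap and it passed with TPM scaling (0.0357). PLXND1, a receptor of SEMA3E, had 14.8 ± 0.45 and 14.7 ± 0.505 FPKM (log2 fold change -0.03, adjusted p = 0.710).

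Of 3 netrins and 3 UNC5 receptors tested, 1 netrin rose and 1 receptor fell. That is 33.3% of the tested genes in each family, against 19.9% of all genes. Among netrins, the basement membrane protein NTN4 rose. NTN4 (ENSG00000074527, chromosome 12, 95657807 to 95791189, minus strand) had 21.6, 23.9 and 23.3 FPKM in control and 30.9, 32.0 and 33.6 FPKM in siGSE1 libraries. The groups were apart, and the fold change was 1.38 (log2 0.47, SE 0.06, adjusted p = 3.18e-05). NTN1, the classical secreted netrin, was at 0.02 to 0.13 FPKM over the 6 libraries. The netrin receptor UNC5B, a dependence receptor that signals death when unbound, fell 2.43-fold, from 0.26, 0.40 and 0.27 FPKM in control to 0.13, 0.12 and 0.15 FPKM in siGSE1 libraries. It rests on 27 to 57 and 15 to 20 counts (log2 fold change -1.28, SE 0.32, adjusted p = 0.0108), and without control replicate 2 the adjusted p was 0.0595. UNC5A, the most abundant UNC5 gene on average, was at 0.19 to 0.29 FPKM in control and 0.25 to 0.57 FPKM in siGSE1 libraries and did not pass (log2 fold change 0.77, adjusted p = 0.150, and 0.47 on the log2 scale without siGSE1 replicate 3).

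ROBO1, the main slit receptor outside the nervous system, had 2.77, 2.60 and 2.94 FPKM in control and 3.56, 3.45 and 3.54 FPKM in siGSE1 libraries. The groups did not overlap, and ROBO1 rose 1.25-fold (log2 0.32, SE 0.07, adjusted p = 0.00474). SLIT3, the only slit with enough counts to test, had 3.56, 1.98 and 3.73 FPKM in control and 4.04, 4.06 and 4.54 FPKM in siGSE1 libraries. Control replicate 2 had the lowest value, far below the other controls, and the groups did not overlap. SLIT3 did not pass (log2 fold change 0.43, SE 0.15, adjusted p = 0.0597), whereas it passed without control replicate 1 or 3 (0.0313 and 0.0261) and with TPM scaling (0.0389). Of 15 alternative settings, SLIT3 passed in 5 and did not in 10, with an adjusted p of 0.348 in DESeq2 and 0.376 under edgeR's robust prior. Without control replicate 2 its log2 fold change was 0.19 (adjusted p = 0.0545).

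The remaining 12 members that did not pass were low. PLXNA3 averaged 1.71 FPKM, and EFNB3, EPHB6, NTNG2, PLXNA4, PLXNB3, PLXNC1, ROBO3, SEMA3F, SEMA6C, SEMA7A and UNC5C averaged under 1 FPKM. Their log2 fold changes ran from -0.48 in UNC5C to 0.72 in PLXNA4, and of the 12 the groups of EFNB3 did not overlap.

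**Figure D4:**
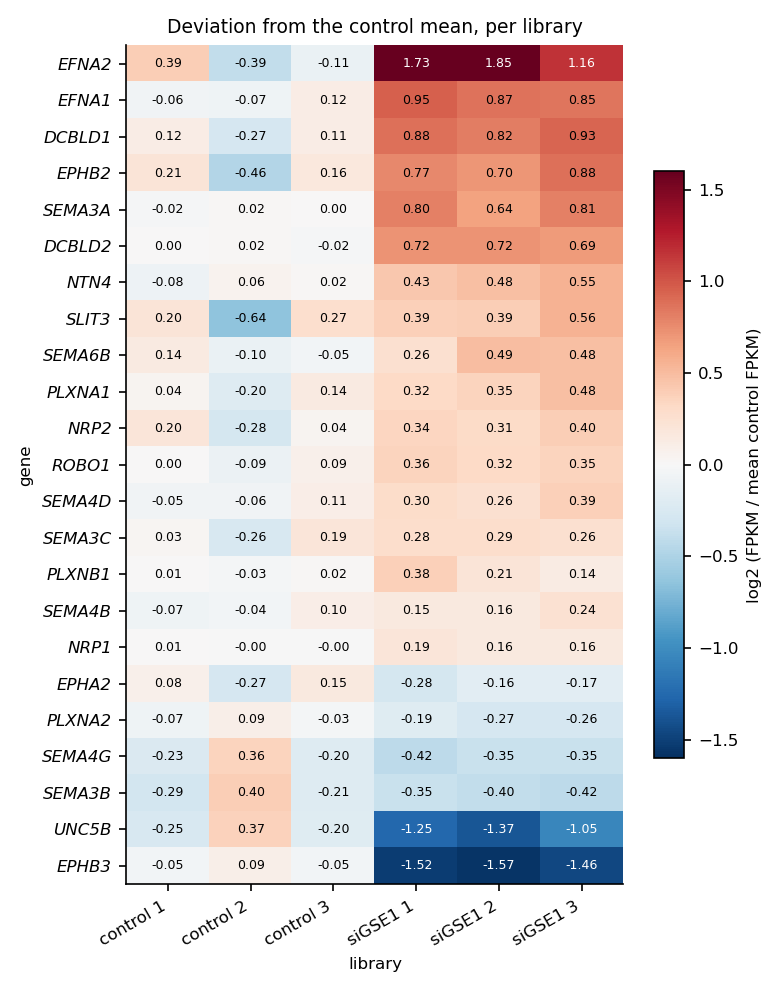
Log2 of FPKM over the control mean, per library, for the 21 changed guidance genes together with EPHA2 and SLIT3, ordered by fold change; red is above and blue below the control mean. Control replicate 2 departs from the other controls in EPHB2, NRP2, SEMA3C, SLIT3 and EPHA2 (below) and in SEMA4G, SEMA3B and UNC5B (above), and the 3 siGSE1 columns resemble each other.

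Each control library departed from the other controls in many of these genes. Control replicates 1, 2 and 3 differed from the mean of the other controls by over 0.25 on the log2 scale in 22, 25 and 20 of the 52 members tested, which is 42.3%, 48.1% and 38.5%. Over all genes tested the shares were 27.6%, 29.7% and 28.5%. The SD over genes of the log2 difference between control libraries was 0.402 for replicates 1 and 2, 0.407 for 2 and 3 and 0.396 for 1 and 3, so over all genes control replicate 2 was hardly farther from the others than they were from each other. Among the 21 changed genes control replicate 2 was off by over 0.25 in 9, namely DCBLD1, EPHB2, PLXNA1, EFNA2, NRP2, SEMA3C, UNC5B, SEMA4G and SEMA3B, and controls 1 and 3 in 6 and 5. In all 9 it lay farther from the siGSE1 libraries than the mean of the other controls did. These genes were called in a fit that held this library, so the call itself favors that direction and no conclusion is drawn from it. Without this library 18 members were called, of which 17 were among the 21 and the other was EPHA2.

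Downstream of these receptors, small GTPases, kinases and adaptors carry the signal to the actin cytoskeleton. Of 102 listed signaling partners, 96 were tested, of which 31 rose, 10 fell and 55 did not pass (42.7% changed, against 19.9% of all genes), with a median log2 fold change of 0.10. The list was chosen with earlier results of these data known, so these shares are not a test of the partners. Without siGSE1 replicate 1, 2 or 3 in turn, 22, 24 and 22 partners rose and 7, 6 and 6 fell. In the same fits 13.2%, 12.6% and 11.4% of all genes tested changed. RND1, a small GTPase that binds plexins, rose from 12.7 ± 0.56 to 23.1 ± 0.99 FPKM (log2 fold change 0.84, adjusted p = 2.75e-07), and RAC1, a GTPase of membrane ruffles, from 51.1 ± 4.67 to 80.3 ± 2.94 FPKM (log2 0.62, adjusted p = 6.74e-06; SD, n = 3 each). The adaptor GRB10 (log2 fold change 0.42), the tyrosine kinase ABL1 (0.43), which acts with ROBO1, the netrin receptor NEO1 (0.31) and the RAC activator DOCK1 (0.40) rose as well. NEO1, which encodes neogenin, had 20.9 ± 0.17 and 26.4 ± 0.20 FPKM, whereas DCC had at most 3 counts in a library.

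The partners that fell with the smallest adjusted p included the actin-severing protein CFL2 (log2 fold change -0.37), the GTPase CDC42 (-0.38) and the polarity protein PARD6B (-0.74). SRC, a kinase recruited by plexins and Eph receptors, fell from 81.1 ± 4.19 to 69.3 ± 0.49 FPKM (log2 -0.25, adjusted p = 0.00216; SD, n = 3 each). DPYSL2, the collapsin response mediator of SEMA3A signaling, had a log2 fold change of -0.23 and the guanine nucleotide exchange factor VAV3 of -0.49. VAV3 had an adjusted p of 0.00758, and 0.0501 without siGSE1 replicate 2. It lost its call in 3 of 15 alternative settings, with a highest adjusted p of 0.0778.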

How the data were processed

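RNA of 3 siGSE1 and 3 control libraries of A549 cells was measured by RNA sequencing. The authors deposited whole-number counts per gene, with no normalization, and FPKM, which equal the count over exonic length and library total within 0.0051 in 100% of values. The submitters' processing notes list hg38, HTSeq, edgeR, HISAT2 and StringTie 1.3.3b, with no roles, whereas the series text names STAR and DESeq2. The sources used here do not give how counting treated strand and shared reads. Members and lists were chosen with earlier results of these data known. Counts were tested over the whole table with edgeR 4.0.16 (quasi-likelihood, TMM factors, filterByExpr with a minimum count of 10 and total of 15, group only), with Benjamini-Hochberg adjustment over 15937 genes and a threshold of 0.05. SE is the absolute log2 fold change over the square root of F. Named genes are members past the threshold, the most abundant tested member of each subfamily, GSE1 and, per direction, the 6 partners with the smallest adjusted p. Other genes named were chosen after their values were seen. On simulated counts over 15937 genes in the same 2 groups of 3 libraries, 79 of 100 genes changed by 1 and 53 of 100 changed by 0.5 on the log2 scale were called. Of 15737 unchanged genes, 15 were called. The simulation held far fewer changed genes than the 3167 called here, so these rates may differ from those of the real comparison. Alternatives used DESeq2 1.42.0, limma 3.58.1 on log2(FPKM + 1) and log2(FPKM + 0.1), other scalings, no filter, a robust prior, the replicate number as a block and each library left out. RefSeq promoter windows are of GRCh38.p14.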

Additional observations from a re-analysis of the deposited data

How the results depend on the processing

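GSE1 kept its direction and call under all 15 alternatives. Of the 21 changed members, 8 kept call and direction under all 15 and 11 under every alternative with all 6 libraries, and none reversed. By limma with either pseudocount 13 were called, and NRP2, PLXNA2, PLXNB1, SEMA3B, SEMA3C, SEMA4B, SEMA4D and SEMA4G lost the call. Guidance genes that fell numbered 5, against 3 with TPM scaling, 3 under edgeR's robust prior, and 2 and 2 by limma with either pseudocount. Signaling partners that fell numbered 10, against 5 and 5 by limma. Over all genes, 1437 fell, against 929 with TPM scaling and 887 and 909 by limma with pseudocounts of 1 and 0.1. Under edgeR's robust prior the count over all genes was higher, at 1522. Leaving out each library in turn gave 10 to 15 guidance genes higher and 3 to 5 lower, 22 to 32 partners higher and 6 to 11 lower, and 1049 to 1914 genes higher and 814 to 1648 lower. With a block on the replicate number, 16 guidance genes were higher and 6 lower, 35 partners were higher and 9 lower, 1715 genes were higher and 1382 lower, and GSE1 had a log2 fold change of -1.03. Same-numbered libraries did not deviate together (correlations of 0.020, -0.019 and 0.002), so the shared numbers were not taken as a pairing. The cause of these shifts was not tested. Depth limits EPHB3, UNC5B and EFNA2, which rest on at most 74 counts a library.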

Other observations

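Several members lie near each other in the genome and had different fold changes. On chromosome 1, EFNA4 (155063737 to 155069553), EFNA3 (155078837 to 155087538) and EFNA1 (155127876 to 155134899) follow each other on the plus strand, with log2 fold changes of -0.11 (SE 0.17), 0.02 (SE 0.27) and 0.87 (SE 0.06). On the minus strand of chromosome 7, SEMA3C (80742538 to 80922359), SEMA3E (83363238 to 83649139), SEMA3A (83955777 to 84492724) and SEMA3D (84995553 to 85186855) had log2 fold changes of 0.25, -0.11, 0.73 and -0.22, of which SEMA3E and SEMA3D did not pass (adjusted p = 0.745 and 0.743). The difference between neighbours was not tested.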
